A study of Mus musculus with 18 samples.

Results

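The hindlimb of the mouse embryo at stage E12.5, counted in days of embryonic development, when cartilage models, joints and the first muscle masses form, was compared between embryos lacking Pitx1 and wild-type embryos. The 6 libraries are all those of that stage, 3 from Pitx1 knockout (KO) hindlimbs and 3 from wild-type (WT) hindlimbs, out of 18 libraries that also cover E9.5 and E11.5. All were of strain C57BL/6 per the labels, and the design text calls the mutant Pitx1-/-. Neither the deleted part of the gene, nor the number of embryos behind a library, nor whether mutants and controls were littermates is given in the labels, so p-values measure the spread between these libraries, which may be technical. Messenger RNA was sequenced after a stranded TruSeq preparation. Depth was 22361170 to 29993146 fragments in KO libraries and 24290469 to 39397236 in WT libraries. Levels are in RPKM, the authors' fragments per kilobase of transcript scaled to library size, as deposited.

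PITX1 is a homeodomain transcription factor that is made in the hindlimb and not in the forelimb, and its loss shortens the hindlimb skeleton and shifts some of its shapes towards those of the forelimb. The T-box factor TBX4, whose gene PITX1 activates, promotes hindlimb outgrowth. Limb cartilage forms when mesenchyme condenses, switches on SOX9 and secretes a matrix of type II collagen and aggrecan, while muscle precursors migrate in from the somites and fuse into fibres.

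The markers of the labelled tissue were present in every library. Hoxc10, a Hox gene of hind body levels, measured 39.0, 22.4 and 40.2 RPKM in KO libraries, against 23.2, 18.9 and 14.2 RPKM in WT libraries, with overlap. Prrx1, a gene of limb mesenchyme, measured 197, 183 and 171 RPKM in KO libraries, against 157, 141 and 161 RPKM in WT libraries, and the T-box gene Tbx5, which marks the forelimb, stayed at or below 1.40 RPKM in all 6. Y-linked genes such as Ddx3y were present in every library and Xist reached at most 0.0327 RPKM, in KO and WT alike.

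The WT library labelled replicate 3 stood apart from the other WT libraries, and this bears on each result. The chi-square per degree of freedom between its fragments and those of WT replicates 1 and 2 was 43.52 and 35.01, against 9.11 to 14.3 for the other same-genotype pairs. This measure can grow with depth, and WT replicate 3 was the deepest of these libraries, at 39397236 fragments. In voom's estimate of library quality it received a weight of 0.333, against 1.07 to 2.13 for the other libraries. On the first principal component, with 43.3% of the variance, KO replicates 1 to 3 scored -35.0, -22.7 and -9.04. WT replicates 1 to 3 scored 6.98, 17.2 and 42.6. The genotypes did not overlap there, but the gap between them was narrower than the spread within either. WT replicate 3 lay at the far end of the WT side, and KO replicate 1 at the far end of the KO side. Calls that change without this library, and values that then move by over 1.5 times, are given beside the results.

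Pitx1 itself, the targeted gene, lay lower in every KO library. It measured 10.8, 13.4 and 11.6 RPKM in KO libraries, against 114, 112 and 44.6 RPKM in WT libraries. The genotypes did not overlap, and WT replicate 3 held less than the other WT libraries. KO libraries averaged 13.2% of the WT level (log2 fold change -2.92 ± 0.40 SE), and this did not pass the threshold of 0.05 (adjusted p = 0.125, edgeR quasi-likelihood test). Without WT replicate 3 it did (log2 fold change -3.24, adjusted p = 3.14e-06). Over the 3 libraries of each genotype, 2169 KO fragments and 18085 WT fragments were assigned to Pitx1. Where in the gene these fragments lay cannot be read from values per gene.

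Of 14494 genes tested, 2 passed an adjusted p of 0.05, or 0.0138%, and both fell in the knockout. They were Tbx4 and Zfp429, a zinc finger gene. At an adjusted p of 0.1 there were 46 genes (0.317%), 35 lower and 11 higher in KO libraries. An unadjusted p under 0.05 was reached by 2185 genes (15.1%), 1232 lower (8.5%) and 953 higher (6.58%). Non-overlapping genotypes were more evenly split, with 1500 genes lower in every KO library (10.3%) and 1650 higher in every KO library (11.4%). Large differences were more often negative: 436 genes had a log2 fold change of 1 or more below 0 (3.01%) and 68 of 1 or more above 0 (0.469%). DESeq2 called 445 genes, 339 lower and 106 higher in KO libraries, both of the above among them.

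**Figure D1:**
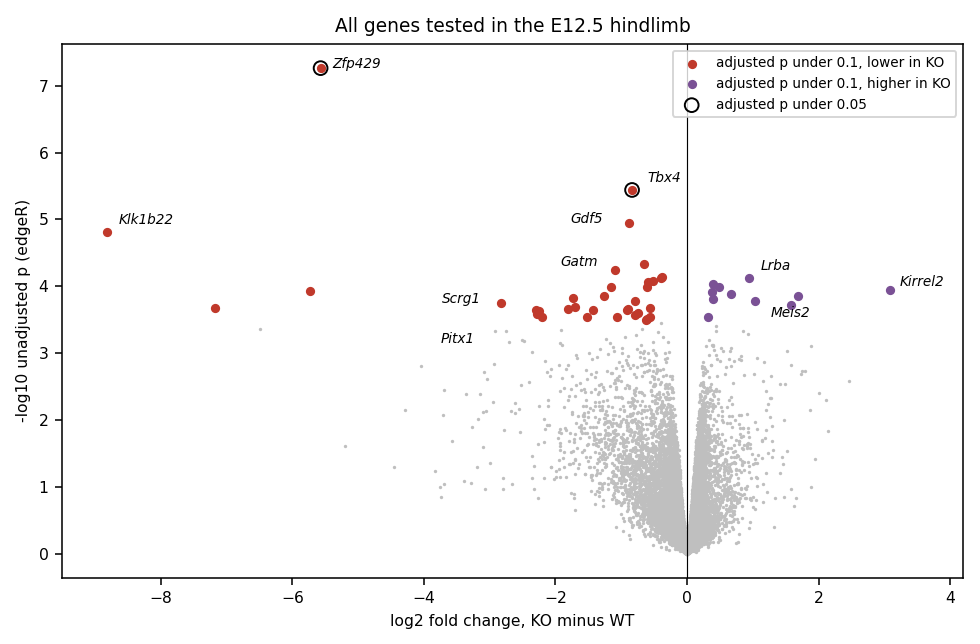
Log2 fold change of each of 14494 genes between KO and WT hindlimbs at E12.5 (x axis, KO minus WT) against -log10 of the unadjusted edgeR p (y axis). Filled coloured points are the 46 genes with an adjusted p under 0.1, and the 2 circled genes, Zfp429 and Tbx4, passed 0.05. Pitx1 lies among the grey points.

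Tbx4 fell to 56.3% of the WT level. It measured 25.8, 28.5 and 24.3 RPKM in KO libraries, against 49.0, 46.8 and 43.9 RPKM in WT libraries. All KO libraries lay well below all WT libraries, and the spread within each genotype was narrow (log2 fold change -0.83 ± 0.076 SE, adjusted p = 0.0263, edgeR). Leaving out any library other than WT replicate 3 took the adjusted p above the threshold, while the log2 fold change stayed between -0.90 and -0.78. Tbx4 is on chromosome 11. A search of its RefSeq promoter, from 250 bases before to 50 after the transcription start, was made for TAATCC, the core motif that PITX proteins bind, on both strands (GGATTA on the other). Of all 32851 promoters in the RefSeq table, 7.06% hold it. By gene, 778 of 11432 tested genes with a listed promoter (6.805%) hold it in any of theirs. Among the 46 genes with an adjusted p under 0.1, it was found in those of 2 of 24 lower genes with a listed promoter and 1 of 10 higher genes. The promoters of Tbx4 and of the 2 lower genes that hold it, Fam19a2, for a secreted neural protein, and Mip, for the lens water channel, both named after their values were seen, are shown in build GRCm38.p6, all on the plus strand, with the motif in capitals. They lie at chr11:85896515-85896814, chr10:123263826-123264125 and chr10:128225560-128225859.
Tbx4: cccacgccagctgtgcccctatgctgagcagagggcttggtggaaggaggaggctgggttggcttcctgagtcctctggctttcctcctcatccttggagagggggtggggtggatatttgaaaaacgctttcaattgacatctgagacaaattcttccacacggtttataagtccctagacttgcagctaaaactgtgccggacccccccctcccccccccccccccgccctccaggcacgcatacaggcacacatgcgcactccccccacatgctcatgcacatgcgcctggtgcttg
Fam19a2: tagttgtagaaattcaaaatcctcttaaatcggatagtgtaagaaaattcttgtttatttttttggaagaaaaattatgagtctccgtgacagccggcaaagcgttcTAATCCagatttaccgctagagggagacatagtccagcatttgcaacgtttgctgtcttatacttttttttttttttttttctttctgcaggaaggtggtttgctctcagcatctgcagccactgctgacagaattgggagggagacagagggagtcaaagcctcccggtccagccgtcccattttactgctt
Mip: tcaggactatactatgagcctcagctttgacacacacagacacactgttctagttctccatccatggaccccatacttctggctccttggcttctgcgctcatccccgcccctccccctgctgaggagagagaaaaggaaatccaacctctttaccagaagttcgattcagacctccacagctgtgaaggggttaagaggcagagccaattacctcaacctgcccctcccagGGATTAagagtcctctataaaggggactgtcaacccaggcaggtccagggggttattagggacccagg
The Tbx4 window holds no match, Fam19a2 has TAATCC and Mip has GGATTA. Of the 40 cartilage matrix genes described further on, 33 have a listed promoter, and none of these genes has the motif there. Such a match, or its lack, is a description of these letters in this window.

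Zfp429 fell the furthest of the genes past the threshold. It measured 0.0458, 0.0856 and 0.0907 RPKM in KO libraries, against 3.75, 3.25 and 4.01 RPKM in WT libraries. The KO libraries were near 0, with 11 fragments in all against 657 in the WT (log2 fold change -5.57 ± 0.30 SE, adjusted p = 0.000789, edgeR). Relative to library totals the fragments were 49.7-fold fewer (exact 95% interval 27.6 to 100, counting error only). At E11.5 the KO libraries held 0.110, 1.45 and 0.222 RPKM and the WT libraries 2.97, 3.51 and 3.29 RPKM. The gene is a member of a zinc finger cluster with similar copies, so fragments shared between copies make its level uncertain. In the fit over 12 libraries of E11.5 and E12.5 its adjusted p was 0.0582 (edgeR), which is not a call. It lies on chromosome 13 in RefSeq, as Pitx1 does. Of the 46 genes with an adjusted p under 0.1, 6 lie on that chromosome (13.04%), against 534 of 14433 placed genes tested (3.7%). Besides Zfp429 they are the zinc finger gene Zfp458, the Golgi protein gene Golm1, the hedgehog coreceptor gene Gas1, the tubulin-processing gene Agtpbp1 and the mismatch repair gene Msh3. Msh3 lay higher in every KO library and the other 5 lower. Zfp458 and Agtpbp1 were named after their values were seen.

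Just outside the threshold stood Gdf5 (adjusted p = 0.0539, edgeR), the growth factor gene that marks the future joint. It measured 23.3, 28.6 and 27.6 RPKM in KO libraries, against 51.0, 44.7 and 51.6 RPKM in WT libraries. The genotypes were far apart relative to their spread (log2 fold change -0.89 ± 0.094 SE), and it was called without a filter on low counts and without WT replicate 3 (adjusted p = 0.0366, edgeR). Klk1b22, a glandular kallikrein gene, had no fragment in any KO library and 181 in the WT libraries, which is at least 50.2-fold lower against a floor of 3 fragments over the 3 KO libraries (adjusted p = 0.0563, or 0.035 without WT replicate 3, edgeR). At E11.5 it was listed at 4.88, 6.03 and 0 RPKM in KO libraries, so the value swings between libraries of a genotype, and it has near-identical copies. The same caution holds for Rpl26, named after its values were seen, a ribosomal protein gene with many pseudogene copies that was listed at 0 in all KO libraries.

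Several lower genes followed by p. Osr2, a zinc finger factor of joints and connective tissue, measured 21.3, 24.0 and 20.5 RPKM in KO libraries, against 34.1, 31.0 and 34.3 RPKM in WT libraries (log2 fold change -0.59 ± 0.083 SE, adjusted p = 0.093, edgeR). Gatm, for the first enzyme of creatine synthesis, measured 5.25, 6.69 and 8.08 RPKM in KO libraries, against 14.03, 14.6 and 14.3 RPKM in WT libraries (log2 fold change -1.10 ± 0.14 SE). Neither pair of groups overlapped. Slc39a14, for a zinc and manganese importer, Peg3, an imprinted gene expressed from the paternal copy, Amotl2, for a motin at cell junctions, and Colgalt2, for a collagen galactosyltransferase, also lay lower in every KO library, with log2 fold changes of -0.65, -0.52, -0.39 and -1.15 and adjusted p-values of 0.093 each (edgeR). Of these, Amotl2 passed without WT replicate 3 (-0.43, adjusted p = 0.0365, edgeR). S100a11, for a calcium-binding protein, was named after its values were seen and measured 77.0, 82.0 and 98.4 RPKM in KO libraries, against 129.5, 165 and 152 RPKM in WT libraries.

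On the other side were 11 genes. Lrba, which regulates vesicle traffic, measured 26.2, 28.2 and 23.9 RPKM in KO libraries, against 15.7, 13.8 and 11.2 RPKM in WT libraries (log2 fold change 0.94 ± 0.12 SE, adjusted p = 0.093, edgeR). Amot, the motin that binds the Hippo effector YAP, measured 70.1, 69.4 and 70.4 RPKM in KO libraries, against 52.4, 52.8 and 45.0 RPKM in WT libraries (log2 fold change 0.49 ± 0.069 SE). In both genes every KO library lay above every WT library, and both passed without WT replicate 3 (0.82 and 0.42, adjusted p = 0.0255 each, edgeR). Arrb1, for a beta-arrestin, Aff3, for a nuclear elongation factor, and Pdhb, for a subunit of pyruvate dehydrogenase, had log2 fold changes of 0.39, 0.38 and 0.67. Kirrel2, for a cell adhesion protein and chosen after its values were seen, had 135 KO and 18 WT fragments. Ncoa4, for a receptor of ferritin autophagy, stayed under 1.6 RPKM in every library.

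**Figure D2:**
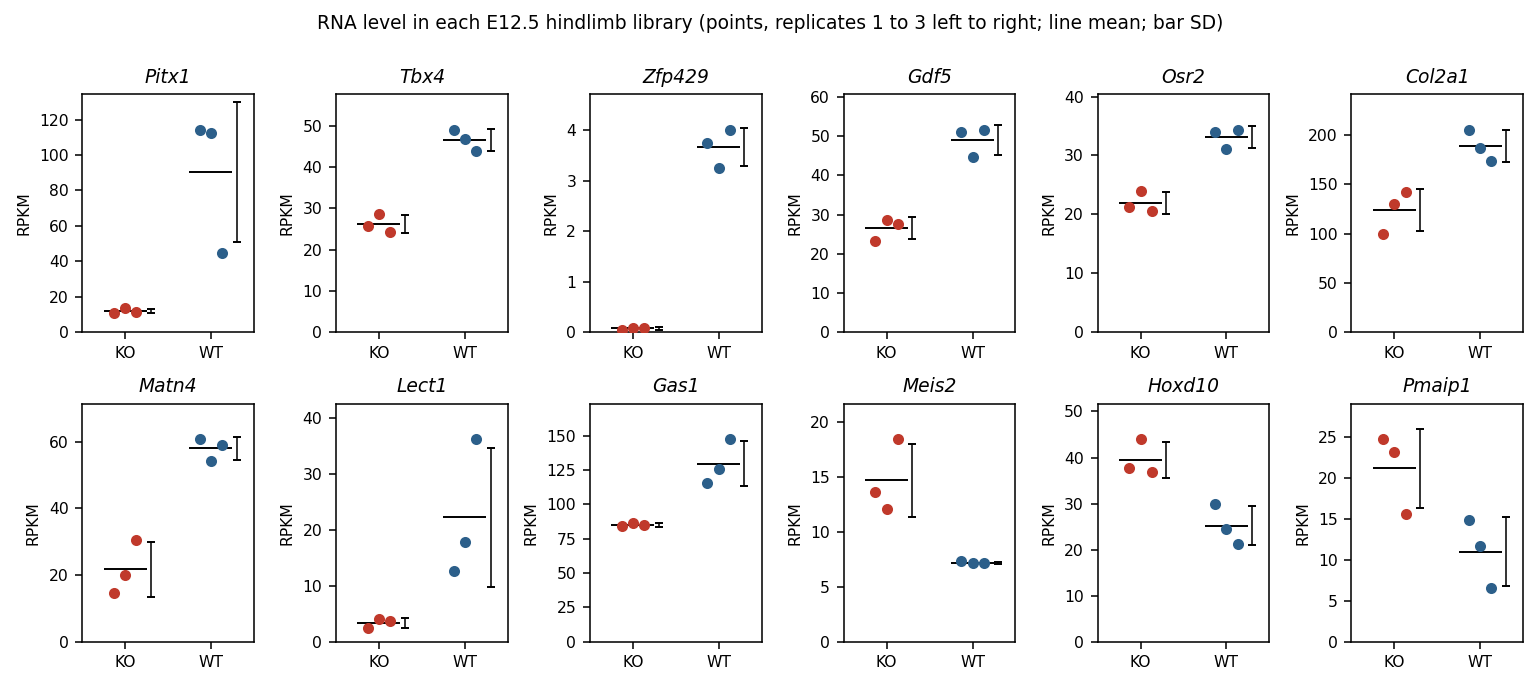
RNA level in RPKM (y axis, from 0) of 12 genes in each E12.5 hindlimb library, KO left and WT right, with the mean and SD of 3 libraries beside the points. The genotypes do not overlap in any of the 12, and WT replicate 3, the right-hand point of its group, is far below the other WT libraries for Pitx1 and above them for Lect1.

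Genes of hindlimb identity and outgrowth were of either sign. Of 20 tested, 15 had positive and 5 negative fold changes (median log2 0.16) beside -0.0005 over all genes tested. Tbx4 was the only member past the threshold. Fgf10, whose product initiates the limb bud, and Isl1, an early factor of the hindlimb field, overlapped between the genotypes, with log2 fold changes of -0.27 ± 0.29 and 0.09 ± 0.27 SE, or 0.15 and -0.18 without WT replicate 3. Tbx5 overlapped (log2 fold change -0.18 ± 0.39 SE, or -0.50 without WT replicate 3).

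No Hox gene of the limb passed the threshold, and several lay higher in every KO library. Hoxd10 measured 37.7, 44.0 and 36.8 RPKM in KO libraries, against 29.8, 24.6 and 21.3 RPKM in WT libraries, with no overlap (log2 fold change 0.65 ± 0.13 SE, adjusted p = 0.15, edgeR). Hoxd11, of the middle limb list, measured 25.04, 28.9 and 24.4 RPKM in KO libraries, against 20.5, 18.4 and 14.8 RPKM in WT libraries, again with no overlap (log2 fold change 0.53 ± 0.14 SE). All 6 genes tested of the middle limb list were on the positive side (median log2 fold change 0.201), and 3 of them, Hoxa9, Hoxa10 and Hoxd11, lay higher in every KO library, as did 11.4% of all genes. Without WT replicate 3, which held the least of all 6 genes among WT libraries, 4 of the 6 were positive and the median was 0.14. Hoxa9 and Hoxa10 had log2 fold changes of 0.27 and 0.18, or 0.17 and 0.11 without it. In the distal limb, Hoxd12 lay higher in every KO library (log2 fold change 0.54 ± 0.19 SE), whereas Hoxd13 and Hoxa13, which pattern the digits, overlapped (log2 fold changes 0.35 ± 0.17 and -0.18 ± 0.12 SE), and Hoxd13 was at 0.24 without WT replicate 3. Hoxc11 overlapped as well (log2 fold change 0.00 ± 0.22 SE, or -0.18 without that library). Msx1, which marks undifferentiated limb mesenchyme, measured 74.1, 91.4 and 79.1 RPKM in KO libraries, against 113, 133 and 84.5 RPKM in WT libraries. Its genotypes overlapped only through WT replicate 3 (log2 fold change -0.43 ± 0.16 SE, or -0.59 without that library).

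Markers of the proximal limb were split. Meis2, a homeobox gene of the upper limb, measured 13.6, 12.03 and 18.4 RPKM in KO libraries, against 7.29, 7.15 and 7.12 RPKM in WT libraries (log2 fold change 1.03 ± 0.15 SE, adjusted p = 0.093, edgeR). Its paralog Meis1 measured 9.08, 8.27 and 16.4 RPKM in KO libraries, against 5.41, 5.22 and 4.03 RPKM in WT libraries (log2 fold change 1.21 ± 0.28 SE, adjusted p = 0.189, edgeR). For each, all KO libraries exceeded all WT libraries, and KO replicate 3 was the highest. On the other side were genes of retinoic acid signalling, to which MEIS genes respond. Aldh1a2, the synthesizing enzyme, measured 56.4, 77.0 and 75.8 RPKM in KO libraries, against 83.8, 102 and 94.7 RPKM in WT libraries. Rarb, a receptor, measured 4.79, 6.60 and 7.79 RPKM in KO libraries, against 8.61, 8.45 and 15.7 RPKM in WT libraries. The genotypes were separate in both, and neither passed (adjusted p = 0.247 and 0.289, edgeR). The log2 fold change of Rarb was -0.79, or -0.44 without WT replicate 3. Over the 13 tested genes of the list, 7 were positive and the median log2 fold change was 0.07.

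In the hedgehog list, 11 of 15 tested genes were on the negative side (median log2 fold change -0.22). Gas1, for a coreceptor, lies on chromosome 13 as Pitx1 does, and the part of this in its values was not tested. It measured 84.0, 86.5 and 84.7 RPKM in KO libraries, against 116, 126 and 147 RPKM in WT libraries (log2 fold change -0.61 ± 0.087 SE, adjusted p = 0.093, edgeR). KO libraries differed little among themselves and lay below every WT library, and Gas1 passed without WT replicate 3 (-0.51, adjusted p = 0.0232, edgeR). Gli1 and Hhip, targets of the pathway, and Cdon, another coreceptor, also lay lower in every KO library, with log2 fold changes of -0.55 ± 0.17, -1.001 ± 0.32 and -0.42 ± 0.13 SE, and without WT replicate 3 of -0.53, -0.60 and -0.24. Shh was too low to be tested. Pax9, a paired-box gene of the anterior limb margin, measured 3.25, 2.16 and 3.18 RPKM in KO libraries, against 7.92, 6.91 and 5.84 RPKM in WT libraries, without overlap (log2 fold change -1.27 ± 0.19 SE, adjusted p = 0.093, edgeR). Fgf8, the growth factor of the apical ridge, overlapped (log2 fold change 0.69 ± 0.48 SE, or 0.30 without WT replicate 3).

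Cartilage matrix genes lay lower as a list. Of 40 genes tested for matrix and secreted proteins of cartilage, 39 had negative fold changes and none passed singly. An unadjusted p under 0.05 was reached by 31, all lower in KO libraries (8.5% of all genes tested were), and 29 did not overlap between genotypes (10.3%). The median log2 fold change was -0.88 with all libraries and -0.80 without WT replicate 3, when 38 of the 40 were negative. Their summed level was 599 to 795 RPKM in KO libraries and 1025 to 1120 RPKM in WT libraries. In bulk tissue, fewer cells of a type and less RNA per cell cannot be told apart.

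Among the collagens, Col2a1, the main cartilage collagen, measured 100.1, 130.3 and 142 RPKM in KO libraries, against 205, 187 and 173 RPKM in WT libraries (log2 fold change -0.61 ± 0.13 SE, adjusted p = 0.16, edgeR). Col11a1 and Col9a3, minor collagens of the same fibrils, had log2 fold changes of -0.92 ± 0.14 and -0.91 ± 0.18 SE. None of these 3 overlapped between genotypes. Col9a1, chosen after its values were seen, was the 1 member with a positive fold change and overlapped (log2 fold change 0.02 ± 0.079 SE, or 0.001 without WT replicate 3).

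Acan, for aggrecan, measured 0.479, 1.498 and 2.08 RPKM in KO libraries, against 4.64, 5.90 and 8.69 RPKM in WT libraries (log2 fold change -2.25 ± 0.53 SE, adjusted p = 0.215, edgeR). Matn1, for a matrilin of mature cartilage, measured 0.233, 0.0348 and 1.82 RPKM in KO libraries, against 6.98, 17.0 and 14.98 RPKM in WT libraries (log2 fold change -4.29 ± 1.03 SE, adjusted p = 0.221, edgeR). Every KO library lay below every WT library for each, but replicates of a genotype differed several-fold. Matn4, the related matrilin, measured 14.5, 19.97 and 30.5 RPKM in KO libraries, against 60.7, 54.2 and 59.0 RPKM in WT libraries, and Lect1, for the vessel-repelling protein chondromodulin, 2.38, 4.07 and 3.70 RPKM in KO libraries, against 12.54, 17.9 and 36.2 RPKM in WT libraries. Their log2 fold changes were -1.44 ± 0.26 and -2.71 ± 0.44 SE, with no overlap, and that of Lect1 passed without WT replicate 3 (-2.16, adjusted p = 0.0365, edgeR).

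Members of the list with an adjusted p under 0.1 were Col11a1, Chad, Scrg1 and 3110079O15Rik (edgeR), 4 of 40, against 0.241% of all genes on the lower side. Chad, for the cell-binding matrix protein chondroadherin, measured 0.723, 1.17 and 1.14 RPKM in KO libraries, against 2.69, 2.81 and 3.23 RPKM in WT libraries. Scrg1, for a small secreted protein of chondrocytes, measured 0.595, 0.635 and 1.77 RPKM in KO libraries, against 8.67, 5.63 and 6.90 RPKM in WT libraries. 3110079O15Rik, the older symbol of Snorc, a cartilage transmembrane proteoglycan, had 1 fragment over the KO libraries and 90 over the WT libraries. In all 3 the KO libraries lay below the WT libraries.

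Among the regulators of cartilage, Sox9, the main regulator, measured 40.6, 55.5 and 45.9 RPKM in KO libraries, against 65.0, 50.05 and 35.5 RPKM in WT libraries. The genotypes overlapped (log2 fold change -0.08 ± 0.23 SE, or -0.28 without WT replicate 3). Its partners Sox5 and Sox6 overlapped too, with log2 fold changes of 0.07 ± 0.20 and -0.20 ± 0.14 SE, or -0.10 and -0.31 without that library. Of 21 tested cartilage transcription factors, Pitx1 included, 16 had negative fold changes and the median was -0.31. Runx3, a factor of maturing cartilage, measured 0.737, 1.118 and 1.74 RPKM in KO libraries, against 2.57, 2.86 and 2.64 RPKM in WT libraries (log2 fold change -1.16 ± 0.28 SE, adjusted p = 0.184, edgeR). Mef2c, which drives chondrocyte hypertrophy, is also a member of the muscle regulator list, and the tissue behind its values was not tested. It measured 6.95, 8.27 and 11.7 RPKM in KO libraries, against 12.3, 13.6 and 17.8 RPKM in WT libraries (log2 fold change -0.70 ± 0.22 SE). Runx3 and Mef2c were lower in every KO library.

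Among genes of hypertrophic cartilage and bone, Runx2, the main bone regulator, measured 1.40, 1.84 and 2.74 RPKM in KO libraries, against 4.18, 4.77 and 4.71 RPKM in WT libraries (log2 fold change -1.17 ± 0.21 SE, adjusted p = 0.149, edgeR). Sp7, for osterix downstream of it, measured 0.966, 1.07 and 1.47 RPKM in KO libraries, against 2.39, 2.47 and 2.68 RPKM in WT libraries (log2 fold change -1.10 ± 0.22 SE, adjusted p = 0.15, edgeR). For each the genotypes were clearly separate, and the fold change was nearly the same without WT replicate 3 (-1.16 and -1.05). Panx3, for a channel of maturing chondrocytes, had 2 fragments over the KO libraries and 285 over the WT libraries. Ihh, the growth signal of prehypertrophic cartilage, measured 0.542, 1.09 and 1.72 RPKM in KO libraries, against 3.64, 4.39 and 1.66 RPKM in WT libraries. Its genotypes overlapped only through WT replicate 3 (log2 fold change -1.52 ± 0.49 SE, or -1.84 without that library). Over 21 tested genes, 17 were negative and the median log2 fold change was -0.57, or -0.15 without WT replicate 3, which had the highest WT value for 15 of them.

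In the joint list, Gdf5 and Osr2 were the members with an adjusted p under 0.1 (edgeR), 2 of 22, against 0.241% of all genes on the lower side. Osr2 is also a member of the cartilage transcription factor and the tendon and connective tissue lists. Of 22 tested genes 16 were negative, with a median log2 fold change of -0.32, or -0.14 without WT replicate 3. The BMP antagonists were not of 1 sign: Nog and Chrd lay lower in every KO library (log2 fold changes -0.61 ± 0.24 and -0.72 ± 0.15 SE) and Chrdl2 higher in every KO library (0.50 ± 0.22 SE).

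**Figure D3:**
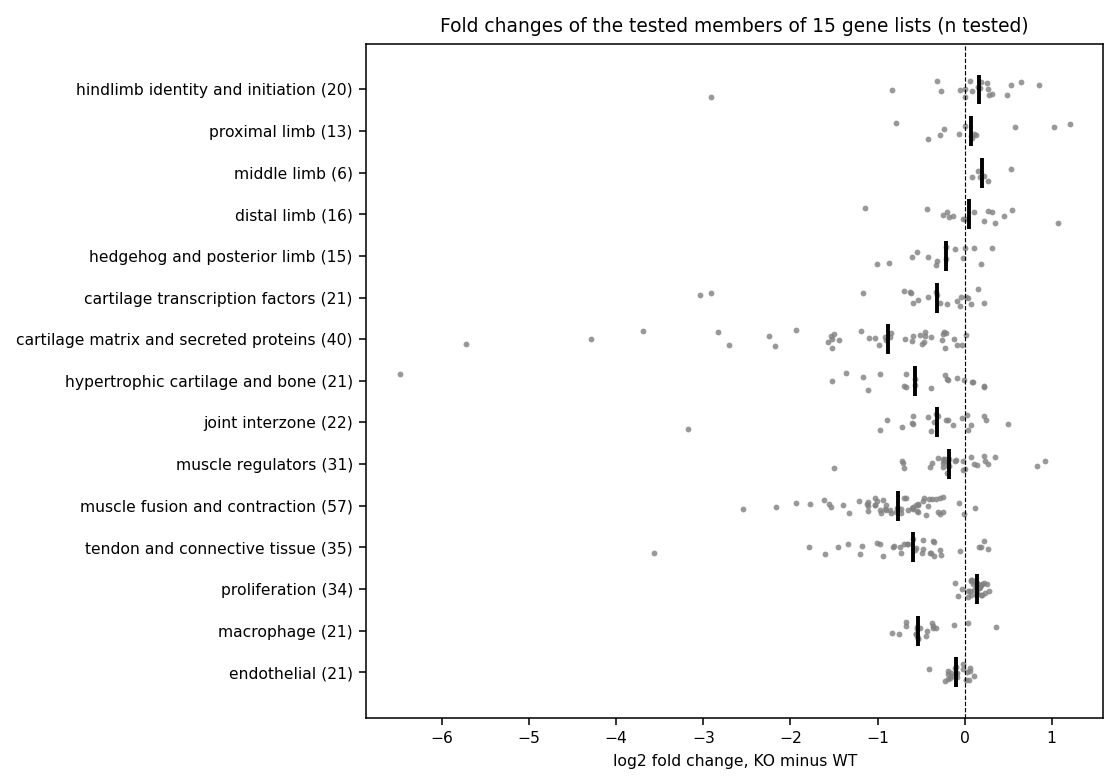
Log2 fold change of every tested member (points; x axis, KO minus WT) of 15 gene lists, with the number tested in brackets, the list's median as a black bar and the median of all genes as a dashed line. Cartilage matrix (median -0.88), muscle fusion and contraction (-0.77) and tendon and connective tissue (-0.59) lie furthest to the left, and proliferation (0.14) is narrow and to the right.

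Contractile genes of muscle lay lower as a list. Of 57 tested genes of fusion and contraction, 56 were on the negative side (median log2 fold change -0.77) and no member passed. An unadjusted p under 0.05 was reached by 29, all lower in KO libraries (8.5% of all genes), but only 15 did not overlap on that side (10.3%). Without WT replicate 3, 55 were negative, the median was -0.63 and 8 reached an unadjusted p under 0.05. Without KO replicate 3 the median was -1.116.

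The libraries of a genotype differed widely in these genes. The summed level was 1071, 1238 and 1969 RPKM in KO replicates 1 to 3 and 1712, 2301 and 2599.6 RPKM in WT replicates 1 to 3, so KO replicate 3 exceeded WT replicate 1. In 56 of the 57 genes KO replicate 3 was the highest of its genotype, and in 54 WT replicate 1 was the lowest of its genotype.

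Tnnt3, for fast muscle troponin T, was among the few with separate genotypes and measured 4.67, 5.31 and 10.4 RPKM in KO libraries, against 14.2, 19.2 and 28.03 RPKM in WT libraries (log2 fold change -1.61 ± 0.37 SE, adjusted p = 0.189, edgeR). Myh8, for perinatal myosin, measured 0.359, 0.930 and 1.82 RPKM in KO libraries, against 2.59, 5.34 and 10.1 RPKM in WT libraries (log2 fold change -2.54 ± 0.73 SE, adjusted p = 0.261, edgeR). Cacng1, for a calcium channel subunit, Ldb3, for a Z-disc protein, Hfe2, for hemojuvelin, and the troponin gene Tnnt2 were also lower in every KO library, with log2 fold changes of -1.39, -1.33, -0.91 and -1.01. Tpm1, the tropomyosin with the highest level of the list, overlapped (log2 fold change -0.30 ± 0.14 SE, or -0.17 without WT replicate 3). Jam3, for an adhesion protein found beyond muscle and named after its values were seen, was the 1 positive member.

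Of 31 tested muscle regulators 21 were negative, with a median log2 fold change of -0.18, or -0.10 with 23 negative without WT replicate 3. Myod1 and Myog, which commit and differentiate muscle cells, overlapped, with log2 fold changes of -0.24 ± 0.17 and -0.18 ± 0.23 SE. Myf5 and Pax7, genes of muscle precursors, overlapped as well (0.01 ± 0.18 and -0.31 ± 0.49 SE, or 0.13 and -0.10 without that library). KO replicate 3 was the highest KO library for Myod1, Myog, Myf5 and Pax7 alike. Cxcr4, a guidance receptor of migrating precursors among other cells, was higher in every KO library (log2 fold change 0.35 ± 0.13 SE, adjusted p = 0.29, edgeR).

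Tendon and connective tissue genes lay lower as a list, with WT replicate 3 far above the other WT libraries. Of 35 tested, 31 were negative and 14 did not overlap on the lower side (10.3% of all genes), with a median log2 fold change of -0.59, or -0.37 without that library, which had the highest WT value for 31 of the 35. Tnc, for the matrix protein tenascin C, measured 6.84, 8.74 and 9.71 RPKM in KO libraries, against 17.0, 19.4 and 32.7 RPKM in WT libraries (log2 fold change -1.45 ± 0.28 SE, adjusted p = 0.163, edgeR). Its log2 fold change without WT replicate 3 was -1.11. Mkx, a tendon homeobox gene, measured 10.999, 14.2 and 11.46 RPKM in KO libraries, against 17.5, 17.7 and 25.6 RPKM in WT libraries (log2 fold change -0.73 ± 0.17 SE). Scx, the first marker of tendon cells, measured 33.8, 31.0 and 36.7 RPKM in KO libraries, against 42.3, 45.1 and 35.4 RPKM in WT libraries. Its genotypes overlapped only through WT replicate 3 (log2 fold change -0.27 ± 0.11 SE, or -0.37 without that library). The mesenchymal factors Twist1 and Twist2 held steady across replicates: Twist1 measured 104, 108 and 103 RPKM in KO libraries, against 124.6, 126 and 134 RPKM in WT libraries (log2 fold change -0.29 ± 0.054 SE, adjusted p = 0.149, edgeR). Twist2 had a log2 fold change of -0.48 ± 0.096 SE. Every KO library lay below every WT library for each. Pdgfra, a receptor of mesenchymal precursors, lay the other way with 134, 148 and 138 RPKM in KO libraries, against 112, 115.2 and 121 RPKM in WT libraries (log2 fold change 0.27 ± 0.061 SE). Col3a1, the interstitial collagen, and Col1a2, which overlapped, had log2 fold changes of -0.74 ± 0.21 and -0.39 ± 0.19 SE, or -0.50 and -0.15 without WT replicate 3.

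Proliferation genes lay slightly higher in KO libraries. Of 34 tested, 31 were positive (median log2 fold change 0.14, largest 0.28) and no member passed. An unadjusted p under 0.05 was reached by 9, all higher (6.58% of all genes were), and 7 did not overlap on that side (11.4%). With WT replicate 3 left out, 27 were positive, the median was 0.07 and 3 reached an unadjusted p under 0.05 on the higher side. Top2a, the topoisomerase of dividing cells, measured 191, 193 and 179 RPKM in KO libraries, against 176, 164 and 143 RPKM in WT libraries (log2 fold change 0.22 ± 0.080 SE, or 0.14 without that library), and the mitotic genes Bub1, Cdk1 and Cenpf had log2 fold changes of 0.23, 0.19 and 0.20, each with separate genotypes. WT replicate 3 had the lowest WT value for 30 of the 34 genes. Pmaip1, the pro-apoptotic p53 target NOXA, measured 24.7, 23.1 and 15.6 RPKM in KO libraries, against 14.9, 11.6 and 6.50 RPKM in WT libraries (log2 fold change 0.95 ± 0.33 SE, adjusted p = 0.289, edgeR), without overlap, and the other genes of the p53 list were of either sign, with a median of -0.05 over 19.

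The summed levels of macrophage and neuronal markers did not overlap between the genotypes, and those of blood and vessel markers did. All 21 macrophage genes were tested and 19 were negative, 9 of them lower in every KO library (10.3% of all genes), with a median log2 fold change of -0.53 and a summed level of 61.8 to 73.5 RPKM in KO libraries and 81.9 to 98.2 RPKM in WT libraries. Csf1r, the growth factor receptor of macrophages, measured 2.29, 2.57 and 3.01 RPKM in KO libraries, against 3.85, 4.54 and 4.15 RPKM in WT libraries (log2 fold change -0.67 ± 0.13 SE, adjusted p = 0.15, edgeR). C1qb, a complement gene of these cells, measured 6.17, 6.48 and 7.22 RPKM in KO libraries, against 8.65, 9.66 and 10.8 RPKM in WT libraries. The genotypes were separate in both. Of 22 neuronal genes 10 were tested, 8 were negative and 4 were lower in every KO library (10.3% of all genes). Their sums were 48.2 to 56.2 RPKM in KO libraries and 60.6 to 68.6 RPKM in WT libraries. Nefm, for a neurofilament, measured 3.54, 3.89 and 3.803 RPKM in KO libraries, against 8.68, 5.14 and 7.10 RPKM in WT libraries, while Neurod1, Neurod4 and Neurog1 were at 0 in every library. Red blood cell genes overlapped, with sums of 9223 to 18047 RPKM in KO libraries and 7067 to 18006 RPKM in WT libraries. These sums hide opposite moves in WT replicate 3. The embryonic globin gene Hbb-y measured 12417, 10818 and 3625 RPKM in WT replicates 1 to 3. The adult globin gene Hbb-b1 measured 821, 1260 and 1830 RPKM there. Both genes overlapped between the genotypes, and the cause of the moves was not tested. Endothelial genes overlapped too, with 258 to 290.0 RPKM in KO libraries and 263 to 324 RPKM in WT libraries. Yolk sac and liver genes summed to 35.96 to 81.2 RPKM in KO libraries and 67.8 to 572 RPKM in WT libraries, with WT replicate 1 far the highest. The part of these cell types in the cartilage, muscle and connective tissue values was not tested.

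**Figure D4:**
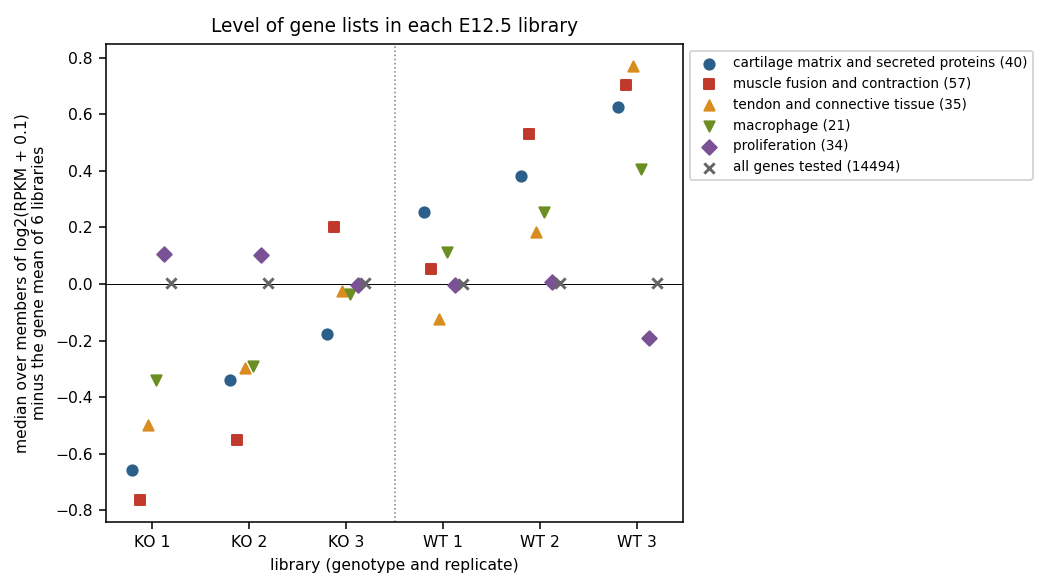
Median over list members of log2(RPKM + 0.1) after subtracting each gene's mean of the 6 libraries (y axis), in every KO library (left) and WT library (right), for 5 lists and for all genes. Cartilage matrix runs from -0.66 to -0.18 in KO libraries and from 0.25 to 0.63 in WT libraries, without overlap. Muscle fusion and contraction overlaps, with 0.20 in KO replicate 3 and 0.05 in WT replicate 1.

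Set beside the hindlimb of a day earlier, the knockout effect differed past the threshold in 1 of 15324 genes (0.00653%), and 1585 (10.3%) had an unadjusted p under 0.05. The E11.5 groups were the same genotypes, with 3 libraries each, and their table was normalized separately, so only fold changes are compared. The gene was Pgm5, for an adhesion protein of muscle attachment sites. At E12.5 it measured 9.82, 12.2 and 11.3 RPKM in KO libraries, against 9.43, 10.9 and 10.3 RPKM in WT libraries, with overlap (log2 fold change 0.12 ± 0.090 SE). At E11.5 it was lower in every KO library, with 1.77, 2.35 and 2.03 RPKM in KO libraries and 5.54, 5.55 and 4.195 RPKM in WT libraries (log2 fold change -1.31 ± 0.14 SE). The difference between the stages was 1.42 ± 0.18 SE (adjusted p = 0.0357, edgeR). This call was lost without WT replicate 3 of E12.5.

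The difference for Tbx4 did not pass, with a fold change of -1.53 ± 0.085 SE at E11.5 and a difference of 0.69 ± 0.11 SE (adjusted p = 0.108, edgeR). Among muscle regulators, 28 of 29 genes tested at both stages had a higher fold change at E12.5, with list medians of -0.18 at E12.5 and -0.54 at E11.5. Myog had a difference of 1.999 ± 0.60 SE and Pax7 of 2.62 ± 0.71 SE, neither past the threshold (adjusted p = 0.374 and 0.32, edgeR). For muscle fusion and contraction 39 of 51 differences were positive, with list medians of -0.72 at E12.5 and -2.02 at E11.5. For proliferation 3 of 34 were positive, with list medians of 0.14 at E12.5 and 0.24 at E11.5. Cartilage matrix had 21 of 35 positive, with medians of -0.68 at E12.5 and -0.61 at E11.5. Osr2 had a difference of -0.58 ± 0.16 SE and Amot of 0.46 ± 0.10 SE, neither past the threshold (adjusted p = 0.32 and 0.253, edgeR). Over all 14157 genes tested at both stages, 6877 differences were positive and 7280 negative.

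**Figure D5:**
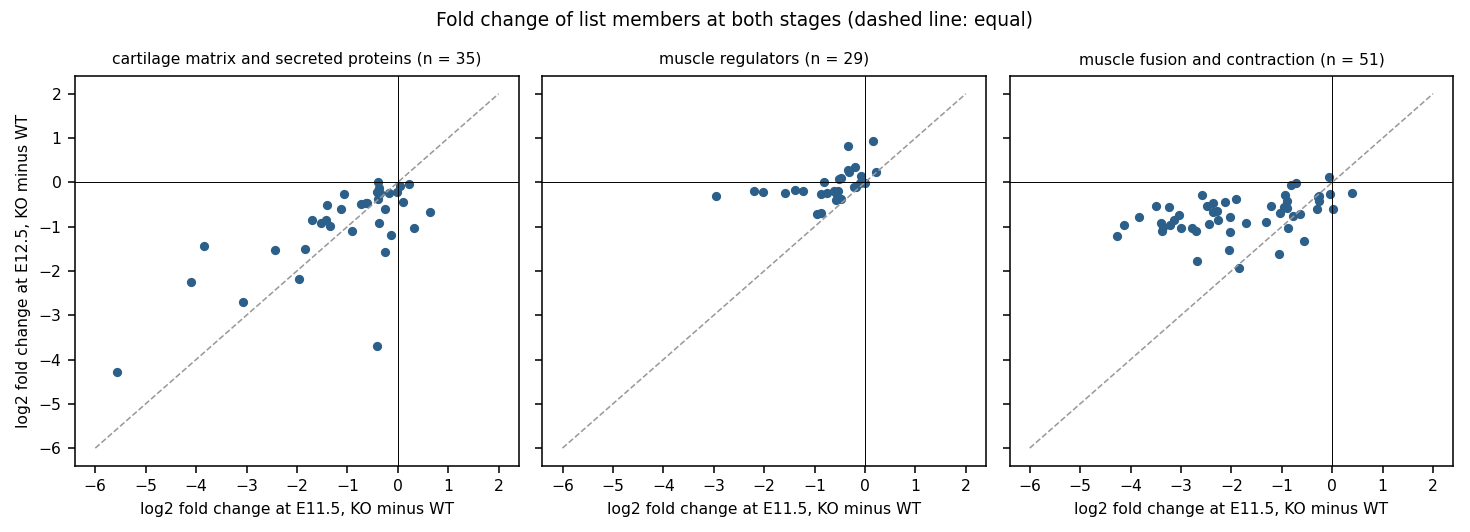
Log2 fold change (KO minus WT) at E12.5 (y axis) against that at E11.5 (x axis) for the members of 3 lists tested at both stages, with a dashed line where they are equal. Muscle regulators lie above the line in 28 of 29 cases and contractile genes in 39 of 51, while cartilage matrix genes lie on either side (21 of 35 above).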

How the data were processed

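RNA-seq of hindlimb buds was analysed from 6 libraries at E12.5 and 6 at E11.5, and E9.5 was not used here. Per the submitters' processing notes, the tools were FastQC, TopHat2 and Cuffdiff with mouse build mm9, while the sources used here give no version, annotation or strand setting. The deposited estimated counts are fragments per gene and library before scaling, 1.84% of them not whole at E12.5, and were rounded. The deposited RPKM values are per kilobase and library size after the authors' scaling between libraries, and serve for levels only. The table's mutant condition was taken as the KO label, and its replicates in order as 1 to 3. Of the names, 23919 genes were kept and 8 left out, and 3 genes, Eef1a1 among them, were listed at 0 where estimation failed.

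Tests used edgeR 4.0.16 (R 4.3.3): TMM scaling, filterByExpr, quasi-likelihood F test with robust fit and Benjamini-Hochberg adjustment over all genes tested, with a threshold of 0.05. The difference between stages is the interaction contrast over 12 libraries. The pipeline was tested on simulated counts with known changes, in which no library stood apart as WT replicate 3 does here. DESeq2 1.42.0, limma 3.58.1 on log2(RPKM + 1) or log2(RPKM + 0.1), other filters and scaling, a replicate block and leaving out each library were alternatives. Intervals at 95% and the floor of 3 fragments cover counting error only. Genes named are a fixed set, those past the threshold, and the smallest p-values per direction and per list, with exceptions stated. The members and lists were chosen with earlier results of these data known.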

Additional observations from a re-analysis of the deposited data

Results flagged for a closer look

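Pgm5 stood out because the knockout effect differed between the 2 stages in a test of the difference itself. The difference in log2 fold change, E12.5 minus E11.5, was 1.42 ± 0.18 SE (adjusted p = 0.0357, edgeR), with KO libraries lower in 3 of 3 at E11.5 and overlapping the WT libraries at E12.5. The call was lost when any of 8 of the 12 libraries was left out, WT replicate 3 of E12.5 among them.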

How the results depend on the processing

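At E12.5 there were 2 calls with DESeq2's scaling, a filter at a mean of 1 RPKM and a fit without robust estimation. There were 5 calls without a filter, 445 with DESeq2, 4 and 5 with limma at pseudocounts of 1 and 0.1, 44 with voom quality weights, 14 in the fit over 12 libraries and 46 at a threshold of 0.1. The 14 held Tbx4 and Pitx1 and not Zfp429. Leaving out each library gave 1 to 15 calls, 15 of them without WT replicate 3, and the cause was not tested. With the replicate number as a block there were 386 calls, 69 higher and 317 lower in KO libraries. Whether the numbers pair the libraries cannot be decided from these values. Same-number deviations correlated at 0.171, -0.027 and 0.234 for replicates 1 to 3, against -0.217 to 0.0548 for pairs of different number. KO replicate 2 correlated best with WT replicate 1 (0.0461), while the other same-number values were the highest of all pairs.

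For the difference between stages there were 2 calls without a filter, 114 with DESeq2, 1 with the block and 0 to 5 when leaving out each library. The joint median ranged from -0.36 to -0.14 on leaving out each library. The reversed values were all of genes without a call. On leaving out each library, Tbx5 ranged from -0.50 to 0.19, Isl1 from -0.18 to 0.39, Fgf10 from -0.46 to 0.15, Hoxc11 from -0.18 to 0.16, Sox9 from -0.28 to 0.15, Sox5 from -0.10 to 0.28, Col9a1 from -0.042 to 0.094 and Myf5 from -0.10 to 0.13 (log2). With voom weights Fgf10 was 0.020 and Hoxc11 -0.083, and with the filter at 1 RPKM Hoxc11 was -0.0041 and Myf5 -0.0018. With 3 libraries a genotype and 1 WT library apart from the others, differences that missed the threshold are not shown to be absent.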
